A study of Homo sapiens with 33 samples.

Results

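The genes described here are 10 members of the ETS family of transcription factors other than GABPA: ETS1, ETS2, ELK1, ELK3, ELK4, ELF1, ELF2, ELF4, ERF and ETV6. They were taken by gene name from 3 tables of knockout over control that the authors deposited, which hold 15149 different gene names, and each of the 10 genes had 1 entry in each table. The cells were 2 human lines, A-375 from a melanoma (20 libraries) and UM-UC-3 from a bladder cancer (13 libraries). Parts of GABPB1, which encodes a B subunit of the transcription factor GABP, were removed with Cas9 and pairs of guide RNAs delivered on a plasmid, and edited cells were grown as clones. The A-375 total knockout joins 4 libraries with exons 2 to 9 deleted (B1KO) and 8 with exon 2 deleted (B1X2KO), from 9 clones. The UM-UC-3 total knockout joins 4 B1KO and 5 B1X2KO libraries, from 8 clones. The A-375 long-form knockout (B1LKO, exon 9 deleted) has 2 libraries from 2 clones. The controls in the series are unedited parental cells (2 libraries in A-375, 1 in UM-UC-3) and clones cut at the ROSA26 safe-harbour locus (4 and 3 libraries). By their names the tables set knockouts against parental cells, so a value for UM-UC-3 could rest on as few as 1 control library. The A-375 tables may share their control libraries. Some libraries came from the same clone, so a p-value measures the spread between these libraries and clones.

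ETS factors share a DNA-binding domain, the ETS domain, that recognises a GGAA core. Many promoters hold a longer form of this site, and several family members can occupy the same site, so that the abundance of each factor bears on which of them is bound. GABP is unusual in the family because GABPA supplies the ETS domain and a separate B subunit, GABPB1 or GABPB2, supplies the activation domain. The 10 genes fall into 4 groups by role: ETS1 and ETS2, activators switched on by ERK phosphorylation; ELK1, ELK3 and ELK4, the ternary complex factors that bind beside serum response factor; ELF1, ELF2 and ELF4, relatives active in many cell types and best studied in lymphocytes; and the repressors ERF and ETV6. The comparison addressed here is whether transcripts of these other family members rose or fell once GABPB1 was lost.

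Each value is a log2 fold change fitted by DESeq2, with the standard error behind its Wald test, 1 per gene and table. Values of single libraries are not analysed here, so depth per sample is unknown and the spread between libraries appears only in each standard error. A gene was called at a Benjamini-Hochberg adjusted p under 0.05. By that rule 10.8% of the genes tested were called in the A-375 total knockout (726 higher and 823 lower, or 907 and 647 with the table centred on its median), 0.904% in the A-375 long-form knockout and 31.1% in the UM-UC-3 total knockout. Among 8 melanocyte markers, SOX10 (mean normalised count 14704), S100B (1586) and MITF (686) were present in the A-375 total-knockout table, PMEL (20.1) and TYRP1 (15.3) were low, and MLANA, TYR and DCT had no entry. Among 10 urothelial markers, PPARG (990.2), GATA3 (194.5), FOXA1 (151), KRT7 (133) and UPK1A (35.3) had low to moderate means in UM-UC-3, and UPK1B, UPK2, UPK3A, KRT5 and KRT20 had no entry. The A-375 total-knockout table also held PPARG (934), GATA3 (101), KRT7 (79.4) and FOXA1 (42.9), with summed means of 1.95e+07 over all its genes against 4.24e+07 in UM-UC-3. The presence of these 4 markers thus does not set the lines apart. Of 8 leukocyte and endothelial markers, 3 had an entry in the A-375 total-knockout table (highest mean 155), 2 in the long-form one and 0 in that of UM-UC-3.

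Few of the 10 ETS genes were called, and a gene that was not called may still have changed. In the A-375 total knockout 1 was called, ELF2, which fell; 1 of 10 is close to the 10.8% of all genes called (5.74% of all genes were called lower). In the UM-UC-3 total knockout 2 were called, ELF1 and ELK4, and both rose, against 31.1% of all genes called and 17% called higher; with the table centred on its median 1 remained, ELF1 (31.1% of genes). In the A-375 long-form knockout 0 of 10 were called by DESeq2 (0.904% of all genes). ELK1 and ELK3 had an unadjusted p under 0.05, with 6.81% and 3.38% of all genes at a smaller p. The share of all genes at an unadjusted p under 0.05 was not worked out, so no such count here or below is read as a result. No called change reached 2-fold. At an adjusted p under 0.01 the counts were 0 in the A-375 total knockout (4.92% of all genes) and 1, ELF1, in UM-UC-3 (20.4%), and with Holm adjustment 0 and 0 (1.2% and 6.28%). The median log2 fold change of the 10 genes was -0.07 in the A-375 total knockout (-0.05 over all genes), 0.13 in the long-form knockout (0.02) and 0.09 in UM-UC-3 (0.03). Their median absolute change was 0.24, 0.13 and 0.10, where that of all genes was 0.32, 0.19 and 0.31. The sets were not matched for count, so these values do not show that the 10 genes were unusually stable. In UM-UC-3 the lowest mean normalised count of the 10 (1393) lay above the all-gene median (1370). In the A-375 total and long-form tables the lowest (324 and 1248) lay below it (542 and 1565).

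**Figure D1:**
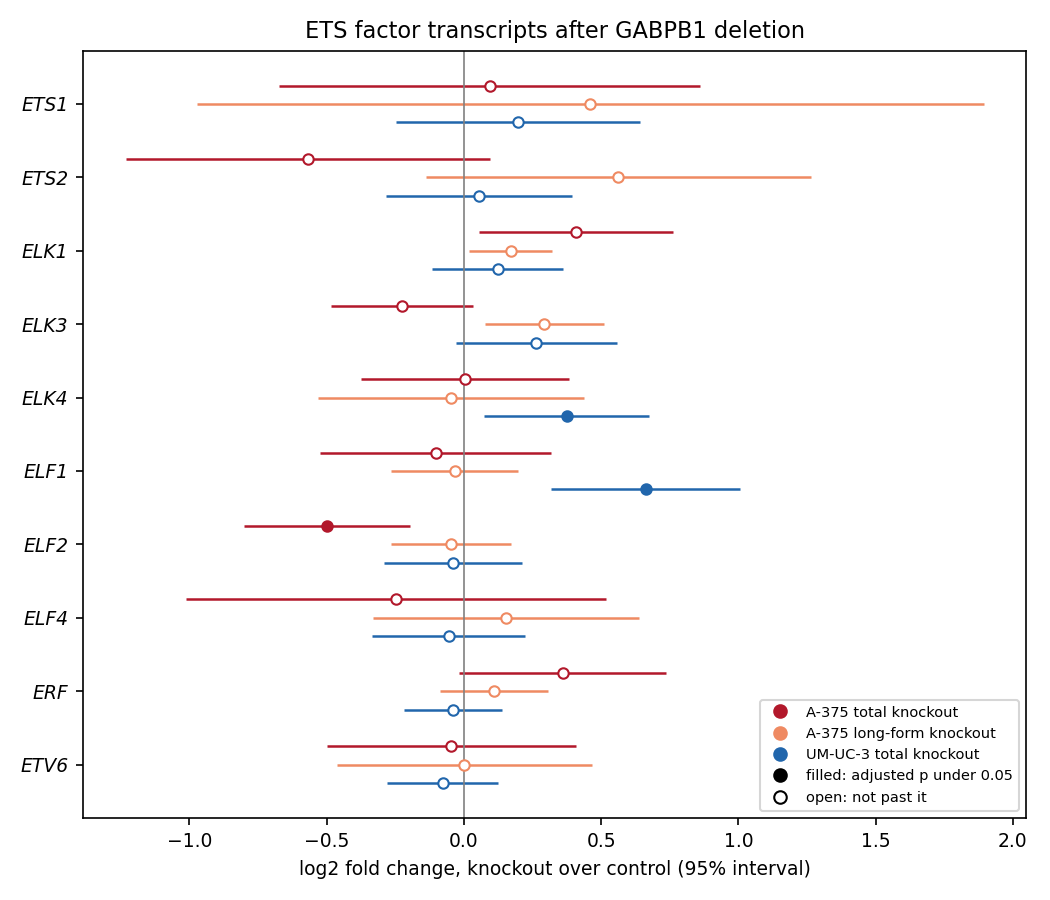
Log2 fold change of knockout over control for each ETS gene (points) with its 95% interval (bars) in the A-375 total knockout, the A-375 long-form knockout and the UM-UC-3 total knockout, from the authors' deposited tables. Filled points (ELF2 in the A-375 total knockout, ELK4 and ELF1 in UM-UC-3) passed an adjusted p of 0.05, and no point lies beyond 0.66 above or 0.57 below zero.

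Of the 3 calls 2 were ELF genes, in different lines and opposite directions: ELF1 rose in UM-UC-3 and ELF2 fell in the A-375 total knockout. The shares of all genes called there were 31.1% and 10.8%. ELF1, a widely expressed activator (chromosome 13, 40932028 to 41061440, hg38), rose in UM-UC-3 with a log2 fold change of 0.66 ± 0.18 (SE throughout; adjusted p 0.00135) per the authors' deposited table. This is 1.58-fold, with a 95% interval of 1.25 to 2.01. With 1 control library assumed, the implied level went from 1906 to 3016 normalised counts (2071 to 3276 with all 4 controls). Of all genes in this table, 12.4% had a smaller p than ELF1. Lineage markers moved in the same table: 2 of 6 melanocyte markers rose, MITF (1.47 ± 0.30) and DCT (2.20 ± 0.54), with means summing to 716 over the 6, and 4 of 5 urothelial markers rose, among them PPARG (1.15 ± 0.32) and KRT7 (0.93 ± 0.30), with means summing to 1505, beside 31.1% of all genes called, per the authors' deposited table. After centring on the median 3 of the 4 urothelial calls held and GATA3 was lost (adjusted p 0.0638). PMEL, TYR and 5 urothelial markers had no entry. The part of these markers in the ELF1 and ELK4 values was not tested. In A-375 ELF1 had -0.10 ± 0.21 in the total knockout (adjusted p 0.803) and -0.03 ± 0.12 in the long-form knockout (adjusted p 0.934), per the authors' deposited tables. An ELF1 exon overlaps an exon of WBP4, which lies on the opposite strand, by 167 bases. The sources used here do not give the strand setting of the counting, so ELF1 and WBP4 may share reads. WBP4 had -0.04 ± 0.19 in UM-UC-3 (adjusted p 0.907) per the authors' deposited table.

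ELF2 (chromosome 4, 139028112 to 139177218, hg38), which is made as activating and repressing isoforms, fell in the A-375 total knockout. The log2 fold change was -0.50 ± 0.15 (adjusted p 0.0186) per the authors' deposited table. The fold was 0.708, with a 95% interval of 0.575 to 0.873, and the implied level went from 758 to 537 normalised counts with 2 controls assumed. The A-375 tables side by side gave -0.50 ± 0.15 in the total and -0.05 ± 0.11 in the long-form knockout, and the UM-UC-3 table gave -0.04 ± 0.13 (adjusted p 0.838), all from the authors' deposited tables. The 95% intervals of the latter pair were -0.27 to 0.17 and -0.29 to 0.21. These are values for the whole gene, so a shift between ELF2 isoforms was not tested, and in bulk RNA fewer cells with a transcript and less of it in each cell cannot be told apart. ELF4 (chromosome X, 130064874 to 130110716, hg38), which restrains T-cell proliferation, was not called in any table. Its log2 fold changes were -0.25 ± 0.39 and 0.15 ± 0.25 in the A-375 tables (total, then long-form) and -0.06 ± 0.14 in the bladder line, per the authors' deposited tables.

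The ternary complex factors gave the third call, ELK4 in UM-UC-3. These proteins sit beside serum response factor at the promoters of immediate early genes and are switched on by ERK. ELK4 (chromosome 1, 205597556 to 205631962, hg38) rose there with a log2 fold change of 0.37 ± 0.15 (adjusted p 0.0473) per the authors' deposited table, a fold of 1.30 with a 95% interval of 1.05 to 1.60. Its implied level went from 2703 to 3505 normalised counts with 1 control assumed. This call lay at the threshold, and after centring on the median ELK4 no longer passed (0.34, adjusted p 0.0712). In A-375 ELK4 had 0.00 ± 0.19 in the total knockout (adjusted p 0.993) and -0.05 ± 0.25 in the long-form knockout (adjusted p 0.959), per the authors' deposited tables. ELK4 exons overlap exons of MFSD4A on the opposite strand by up to 195 bases, and MFSD4A had no entry.

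ELK1 (chromosome X, 47635521 to 47650604, hg38), the best-studied ERK target of the group, had positive values in all 3 of the authors' deposited tables, none of them called. It was 0.41 ± 0.18 in the A-375 total knockout (adjusted p 0.122), 0.17 ± 0.08 in the long-form knockout (adjusted p 0.387) and 0.12 ± 0.12 in UM-UC-3 (adjusted p 0.468). ELK3 (chromosome 12, 96194382 to 96269835, hg38), a repressor that ERK phosphorylation turns into an activator, had values of opposite sign. It was -0.23 ± 0.13 in the A-375 total knockout (adjusted p 0.268), 0.29 ± 0.11 in the long-form knockout (adjusted p 0.241) and 0.26 ± 0.15 in UM-UC-3 (adjusted p 0.169), per the authors' deposited tables.

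ETS1 and ETS2, the founding members of the family and regulators of matrix-degrading proteases, were not called in any table. ETS1 (chromosome 11, 128458761 to 128587558, hg38) had 0.09 ± 0.39 in the A-375 total knockout, 0.46 ± 0.73 in the long-form knockout and 0.20 ± 0.23 in UM-UC-3, per the authors' deposited tables. These 95% intervals ran from -0.67 to 0.86, from -0.97 to 1.89 and from -0.25 to 0.64, so a 2-fold rise lay inside the interval only in the long-form knockout. ETS2 (chromosome 21, 38805307 to 38824955, hg38) had -0.57 ± 0.34 (adjusted p 0.281), 0.56 ± 0.36 (adjusted p 0.565) and 0.06 ± 0.17 (adjusted p 0.834) in the same order, per the authors' deposited tables. Its A-375 values were the lowest and the highest of the 10 genes in those tables, and neither passed.

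The repressors ERF and ETV6 had some of the narrowest intervals in UM-UC-3. ERF (chromosome 19, 42247572 to 42255157, hg38), which ERK drives out of the nucleus, had -0.04 ± 0.09 there, with a 95% interval of -0.22 to 0.14 (adjusted p 0.772), per the authors' deposited table. In A-375 it had 0.36 ± 0.19 in the total knockout (adjusted p 0.224) and 0.11 ± 0.10 in the long-form knockout (adjusted p 0.703), per the authors' deposited tables. ERF exons overlap those of AC006486.1 by up to 155 bases on the same strand, and AC006486.1 had no entry. Reads there could belong to either gene whatever the strand setting. ETV6 (chromosome 12, 11649854 to 11895402, hg38), a repressor that is often fused to other genes in leukaemia, had -0.08 ± 0.10 in UM-UC-3 (adjusted p 0.609), per the authors' deposited table. Its A-375 values were -0.05 ± 0.23 in the total and 0.00 ± 0.24 in the long-form knockout, per the authors' deposited tables, and their signs flipped when the tables were centred on their medians.

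The proximal promoters were searched for the ETS site that GABP prefers, because the family members recognise related sites. RefSeq promoter windows (GRCh38.p14, 250 bases before to 50 after a start) were at hand for 9 of the 10 genes, all but ETS1. The site was written as CCGGAAG or, with 1 more base, CCGGAAGT, and both strands were read; every match to the longer form is also a match to the shorter. Of the 10 genes, ELK4 was the only one with a match, of 9 with a window, and it matched both forms. Over the 11016 genes in the tables with a window, 20.8% held CCGGAAG and 9.14% held CCGGAAGT. The bare core GGAA was present for all 9 genes and for 96.5% of the genes in the tables. The stretches below show the ELK4 match, the GABPA match for comparison, and the bases just before a start of ELF2 and of ELF1, with CCGGAAG (or its reverse complement) in capitals, and in ELF1 the bare core GGAA. The GABPA stretch overlaps exons of ATP5PF and GABPA in GENCODE 29, and the ELF1 stretch overlaps exons of WBP4 and ELF1. Windows at other starts of ELF2 and ELF1 differ in the bare core, both strands read. For ELF2 the window of the start shown held 0 copies and that of the other start 2. For ELF1 the window of the start shown held 5 copies and those of the other starts 3 and 0.
ELK4, chr1:205632012-205632060, minus strand: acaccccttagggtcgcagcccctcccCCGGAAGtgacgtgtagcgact
GABPA, chr21:25734895-25734923, plus strand: cctccgctctaCTTCCGGccctggctccg
ELF2, chr4:139177219-139177278, minus strand: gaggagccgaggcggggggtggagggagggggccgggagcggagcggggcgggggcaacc
ELF1, chr13:41061387-41061416, minus strand: gtataaaggggttgaggtcaccgGGAAggg
The ELK4 match began 22 bases before the start and the GABPA match 66 bases before it. A match describes these letters and does not show binding, and these windows leave out other promoters and more distant sites.

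The response of each gene was then compared between the cell lines, whose tables share no library. By the z of the difference, 10.4% of 12640 genes differed at an adjusted p under 0.05 (799 higher and 521 lower in UM-UC-3 than in A-375, or 568 and 763 with both tables centred). Of the 10 ETS genes 0 differed, and the smallest p-values among them were those of ELF1, ELK3 and ELF2. ELF1 was closest, with UM-UC-3 minus A-375 at 0.76 ± 0.28 (95% interval 0.22 to 1.31, adjusted p 0.0531). The same difference passed (adjusted p 0.0492) where only genes averaging 100 counts or more per table were tested (12% of these called) and had an adjusted p of 0.211 with the UM-UC-3 standard errors raised 1.5 times. For ELK3 the difference was 0.49 ± 0.20 (0.10 to 0.88, adjusted p 0.0889) and for ELF2 0.46 ± 0.20 (0.07 to 0.85, adjusted p 0.120). At an adjusted p under 0.1 ELF1 and ELK3 differed, as did 16.9% of genes. ELF1 and ELF2 were thus each called in 1 line, and the test of the difference did not separate the lines. For ELK4 the difference was 0.37 ± 0.25 (adjusted p 0.345).

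**Figure D2:**
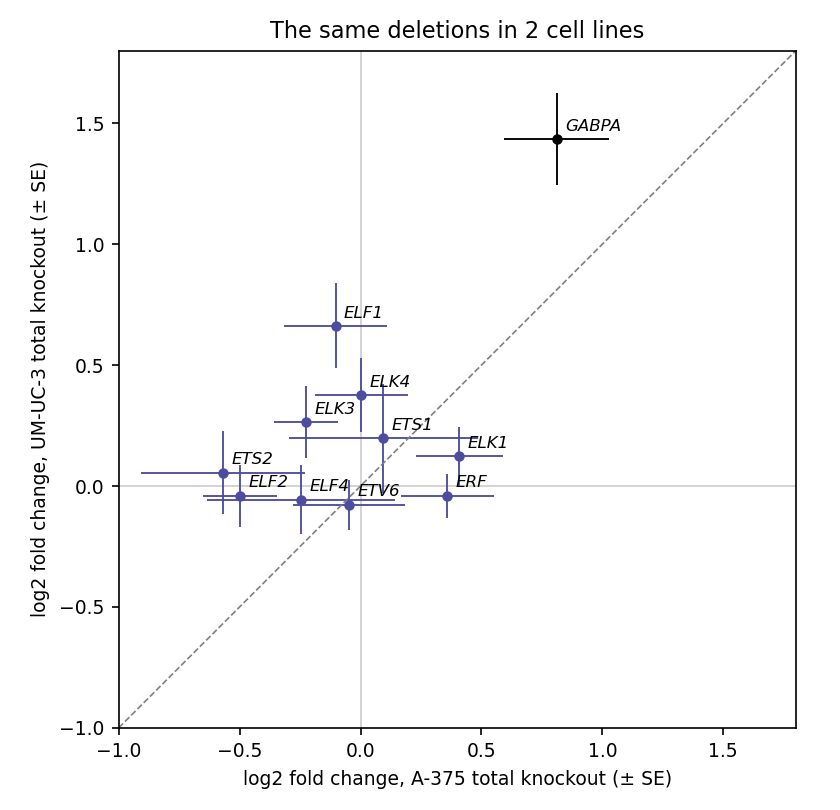
Log2 fold change in the UM-UC-3 total knockout (vertical axis) against that in the A-375 total knockout (horizontal axis), each with its SE, for the ETS genes (blue) and GABPA (black); the dashed line marks equal change. GABPA lies at 0.81 and 1.43, apart from the 10 other genes, whose values lie between -0.57 and 0.66.

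Levels were set side by side as implied control counts per kilobase of the longest annotated transcript and per 1000000 of the table's summed mean counts. In A-375 the order began with ERF (46.1), ELK3 (42.3) and ELK1 (37.9), followed by ETS1 (16.6), ELK4 (13.2), ELF1 (13.1), ELF2 (9.71), ETV6 (9.29), ETS2 (5.88) and ELF4 (5.78). In UM-UC-3 it began with ETS1 (81.7), ELK3 (65.8) and ERF (35.6), followed by ETS2 (19.8), ELF4 (18.9), ELK1 (15.4), ELF1 (12.6), ELF2 (8.40), ETV6 (7.50) and ELK4 (6.23). ETS1, ETS2, ELF4 and ELK3 had higher implied levels in the bladder line than in the melanoma line, and the other 6 genes had lower ones. The 2 tables were normalised separately and levels carry no error of their own, so neither this contrast nor the order of neighbours was tested. With the median coding transcript as length, ELK3 led in both lines (174 in A-375 and 270.0 in UM-UC-3). In knockout cells ERF stood at 59.1 in A-375 and ETS1 at 93.6 in UM-UC-3, each the highest of the 10 genes with the longest transcript as length.

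**Figure D3:**
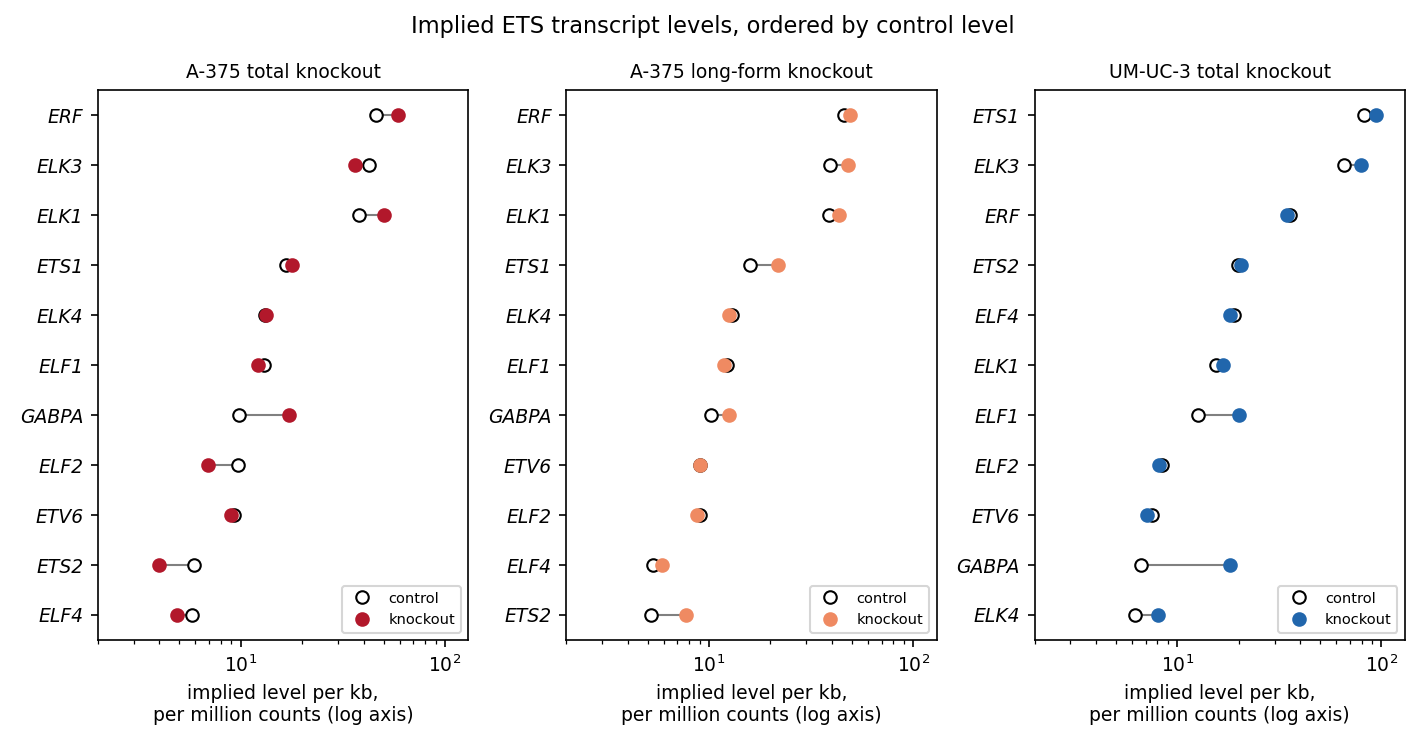
Implied level per kilobase of the longest transcript, per 1000000 counts of the table, on a log axis, in control (open) and knockout (filled) cells, assuming 2 parental controls in A-375 and 1 in UM-UC-3. Genes are ordered by control level; the widest moves among the rows of the total knockouts belong to GABPA (9.80 to 17.2 in A-375 and 6.68 to 18.0 in UM-UC-3).

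The place of GABPA within the family was worked out from the same implied levels. GABPA rose by 0.81 ± 0.22 (adjusted p 0.00508) in the A-375 total knockout and by 1.43 ± 0.19 (adjusted p 6.25e-12) in UM-UC-3, per the authors' deposited tables. Among the 18 ETS genes with an entry in A-375, GABPA ranked 10 in controls and 7 in the total knockout by implied level per kilobase of the longest transcript, and its share of their summed level went from 2.74% to 4.79%. Among 16 in UM-UC-3 it went from rank 12 to rank 9 and from 1.99% to 4.67%. With the median coding transcript as length the ranks went from 12 to 11 in A-375 and from 13 to 12 in UM-UC-3. The shares by this length were 1.04% and 1.90% in A-375 and 0.692% and 1.68% in UM-UC-3. These ranks and shares assume 2 parental controls in A-375 and 1 in UM-UC-3. With ROSA26 controls or all controls assumed, the UM-UC-3 rank by the median coding transcript went from 13 to 10. The size of this move thus depends on the controls assumed. The 10 other genes together held 56.0% and then 59.5% in A-375, and 81.2% and then 79.2% in UM-UC-3. With the median coding transcript their share went the other way in UM-UC-3, from 70.0% to 71.3% (56.0% to 59.1% in A-375), so its direction there depends on the length used. These are RNA levels, and protein was not measured here.

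How small a change could have been called differed widely between the genes. The smallest called change at a gene's standard error, taken from the smallest absolute Wald statistic called in the table, was 0.22 on the log2 scale for ERF and 0.25 for ETV6 in UM-UC-3. In the A-375 total knockout it was 0.37 for ELK3 and 0.43 for ELF2, but 1.09 for both ETS1 and ELF4. In the long-form knockout it was 0.27 for ELK1 and 2.56 for ETS1. An estimate below these sizes would not have been called for that gene at that standard error. These are cutoffs on the estimate, not limits on the true change that could be detected.

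ETS1 was the least evenly measured of the 10 genes for its abundance. Each standard error was set beside those of the 500 genes nearest in mean normalised count. For ETS1 it was 2.03 times their median in the A-375 total knockout, 4.51 times in the long-form knockout and 1.59 times in UM-UC-3, which exceeded 89.6%, 97.8% and 88.2% of those genes. In the long-form table the 500 genes fell into 2 bands, 477 up to 0.39 and 23 from 0.55, and ETS1 at 0.73 lay in the upper band. None of the other 9 genes lay above its own gap in any table. At the other end, ELK1 in the long-form knockout had 0.486 times the median error of its 500 neighbours, and ERF had 0.626 times in UM-UC-3. The part of clone-to-clone spread in these errors was not tested.

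**Figure D4:**
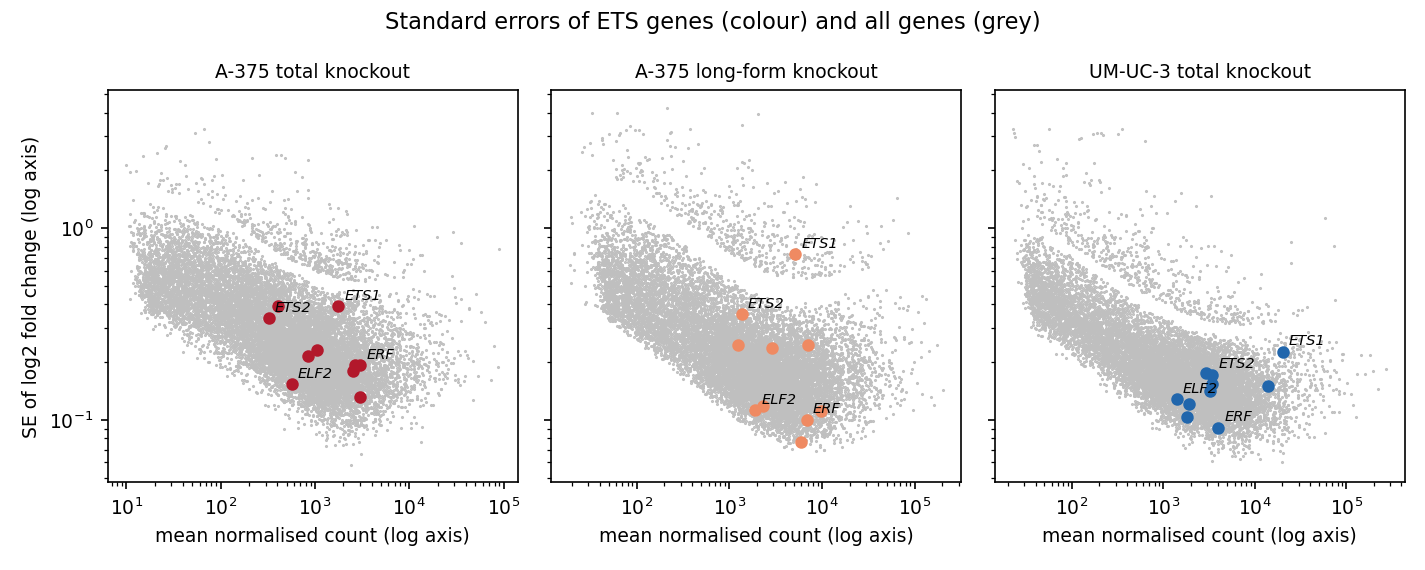
Standard error of the log2 fold change against mean normalised count, both on log axes, for all genes with a mean of at least 10 (grey) and the ETS genes (colour) in the A-375 total, A-375 long-form and UM-UC-3 total knockout. ETS1 sits at 0.73 in the long-form table, above the widest gap in the standard errors of genes of similar mean, and above most such genes in the other tables.

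The rest of the family, 18 genes, had 8 entries in each A-375 table and 6 in UM-UC-3. In the A-375 total knockout 2 of 8 were called (10.8% of all genes), both higher (5.07% of all genes): GABPA and EHF, an epithelial ETS factor, which rose by 3.39 ± 0.85 (adjusted p 0.00241) from an implied 14.0 normalised counts with 2 controls assumed, per the authors' deposited table. EHF had no entry in UM-UC-3. In UM-UC-3 3 of 6 were called (31.1% of all genes), all higher (17% of all genes): GABPA, ETV3 and ETV1. ETV3, a repressor close to ERF, rose by 0.71 ± 0.16 (adjusted p 0.000125), and ETV1, of the PEA3 group, rose by 0.89 ± 0.33 (adjusted p 0.0257), per the authors' deposited table. In the long-form knockout 0 of 8 were called by DESeq2 (0.904% of all genes), and 0 had an unadjusted p under 0.05. ETV2, ETV4, ETV5 and FLI1 had entries in 1 or both lines and no call. Of the 18, ELF3, ELF5, ERG, ETV3L, ETV7, FEV, SPDEF, SPI1, SPIB and SPIC had no entry in any table.

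Among genes that act with ETS factors the calls named below stand beside shares over all genes of 10.8% in the A-375 total knockout and 31.1% in UM-UC-3. Of 12 measured partners and coactivators, 1 was called lower in the A-375 total knockout, SP1, a GC-box factor (-0.41 ± 0.11, adjusted p 0.00709 per the authors' deposited table). Among the same genes UM-UC-3 had 1 higher, SP3, its relative (0.54 ± 0.13, adjusted p 0.000564), and 1 lower, DAXX, a binding partner of ETS1 (-1.87 ± 0.49, adjusted p 0.000978), per the authors' deposited table. DAXX had the lowest mean normalised count of the 12 there, at 111, and USF1 the next lowest, at 1064. SRF, the partner of the ternary complex factors, had 0.02 ± 0.10 and -0.11 ± 0.12 in the total knockouts of A-375 and UM-UC-3, per the authors' deposited tables. Of the kinases that phosphorylate ETS factors, MAPK11, a p38 kinase, was lower in both total knockouts, at -0.91 ± 0.32 in A-375 (adjusted p 0.0409) and -0.94 ± 0.11 in UM-UC-3 (adjusted p 1.38e-14), per the authors' deposited tables. After centring on the median its A-375 call did not hold (adjusted p 0.0576). CAMK2D, a calmodulin-dependent kinase, rose in UM-UC-3 (0.88 ± 0.14, adjusted p 6.43e-08 per the authors' deposited table). These were all the calls among 9 kinases measured in A-375 and 8 in UM-UC-3.

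Among 9 measured turnover and SUMO genes, 1 was called in the A-375 total knockout. DDA1, a partner of the DET1 ubiquitin ligase, rose in A-375 by 0.28 ± 0.09 (adjusted p 0.0318), per the authors' deposited table. DET1, which with COP1 (RFWD2 in these tables) directs ETS proteins to degradation, rose in UM-UC-3 by 1.05 ± 0.24 (adjusted p 0.000186), per the authors' deposited table. Of 11 corepressor genes, 0 were called by DESeq2 in the A-375 total knockout (1 had an unadjusted p under 0.05), and 1 rose in UM-UC-3, SIN3B (0.35 ± 0.10, adjusted p 0.0024 per the authors' deposited table). In the long-form knockout 0 of 12 partners, 0 of 8 kinases, 0 of 9 turnover genes and 0 of 11 corepressors were called by DESeq2 (0.904% of all genes), with 0, 0, 2 and 1 at an unadjusted p under 0.05.

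Genes usually named as ETS targets had calls in both directions. Of 9 measured targets of ETS1 and ETS2, 2 rose in the A-375 total knockout: the collagenase MMP1 (4.02 ± 0.94, adjusted p 0.000915) and the protease inhibitor TIMP1 (1.68 ± 0.56, adjusted p 0.0330), per the authors' deposited table. The share over all genes called was 10.8% in that table and 31.1% in UM-UC-3, where of 10 targets 3 rose and 1 fell. MMP3, a stromelysin (3.41 ± 0.74, adjusted p 5.83e-05), MMP1 (3.14 ± 0.89, adjusted p 0.00272) and TIMP1 (0.56 ± 0.17, adjusted p 0.00592) rose per the authors' deposited table. PLAU, the urokinase protease, fell there (log2 fold change -0.50 ± 0.18, adjusted p 0.0242), per the authors' deposited table, and is named because it completes the count. In the long-form knockout 1 of 9 was called (0.904% of all genes), PLAU, which was lower (-2.24 ± 0.63, adjusted p 0.0421) per the authors' deposited table. The medians of this list were 0.39, 0.17 and -0.07 in the A-375 total, UM-UC-3 and long-form knockouts, beside -0.05, 0.03 and 0.02 over all genes.

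Of the serum-response genes that ternary complex factors help to control, 1 of 13 was called in the A-375 total knockout (10.8% of all genes). This was the zinc-finger factor EGR2, which rose by 3.69 ± 1.06 (adjusted p 0.0102) per the authors' deposited table. In the long-form knockout 3 of 13 were called, beside 0.904% of all genes, and all 3 were lower, as were 0.664% of all genes: IER3 (-1.69 ± 0.36, adjusted p 0.00126), FOS (-1.73 ± 0.38, adjusted p 0.00336) and the ERK phosphatase DUSP1 (-0.61 ± 0.15, adjusted p 0.00912), per the authors' deposited table. The bladder line had 2 of 11 higher and 2 lower, where 31.1% of all genes were called. PHLDA1 rose by 1.01 ± 0.23 (adjusted p 0.000208) and the nuclear receptor NR4A1 by 1.27 ± 0.39 (adjusted p 0.00668), per the authors' deposited table. IER2 (-0.41 ± 0.15, adjusted p 0.0205) and FOS (-1.51 ± 0.59, adjusted p 0.0388) were lower per the authors' deposited table; FOS was named after its values were seen. The medians of this list were 0.48, -0.35 and -0.21 in the A-375 total, long-form and UM-UC-3 knockouts.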

How the data were processed

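Per the submitters' processing notes, DESeq2, StringTie, SAMtools and HISAT2 were used with hg38; no versions or order are given. Not given in the sources used here are the annotation, filters, model formula and controls behind a fit. DESeq2 output in 3 tables was deposited by the authors. Their mean column is a signal, the average of size-factor normalised counts across a fit's libraries, per the file headers. Effects and their standard errors are deposited on the log2 scale, knockout relative to control. The authors' test statistic is a score (Wald). The deposited p-value columns give the raw 2-sided p, its Benjamini-Hochberg correction and a further q-value. Adjusted p-values recomputed from the raw ones differed by at most 6.98e-05.

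The genes and lists were chosen with earlier results of these data known. Named are the 10 genes, other ETS genes called in a table, and up to 3 called genes per list and table by adjusted p. For each gene averaging 10 counts or more in each table, the A-375 effect was subtracted from that of UM-UC-3, with errors added in quadrature; z was referred to the normal distribution and p-values were adjusted by Benjamini-Hochberg. Control and knockout levels were solved from the mean count and the effect for an assumed number of control libraries. Places and transcript lengths came from GENCODE 29 (hg38), promoters from RefSeq (GRCh38.p14). Intervals are 95% normal intervals from the authors' standard errors. Python 3.11.15, pandas 2.3.3 and SciPy 1.17.1 were used. Alternatives changed the adjustment, centring, count minimum, threshold, assumed controls and transcript length. Some list genes are not reported here.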

Additional observations from a re-analysis of the deposited data

Results flagged for a closer look

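Of the 6 other ETS family genes with an entry in UM-UC-3, ETV3 and ETV4 differed between the cell lines by the test of the difference itself. By the same rule 10.4% of all genes tested differed, and 0 of the 10 ETS genes did. ETV3 and ETV4 are named here because they passed. ETV3 was 0.69 ± 0.22 higher in UM-UC-3 than in A-375 on the log2 scale (adjusted p 0.0217 over 12640 genes; 0.71 in UM-UC-3 and 0.01 in A-375). ETV4, of the PEA3 group, was 0.63 ± 0.21 higher (adjusted p 0.0368), with 0.35 in UM-UC-3 and -0.28 in A-375, neither of which was called on its own. With both tables centred on their medians ETV3 still passed (0.61, adjusted p 0.0478) and ETV4 did not (0.54, adjusted p 0.0765). With the UM-UC-3 standard errors raised 1.5 times neither passed (adjusted p 0.165 for ETV3 and 0.208 for ETV4). Both values may rest on 1 UM-UC-3 control library.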

How the results depend on the processing

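Of 260 values listed for the 10 genes under the alternatives, 249 kept their direction and side of the threshold. Only centring altered a log2 value, so direction could not change under the other alternatives. Some of these only moved the threshold or used the deposited q-value. The count is therefore no measure of how firm the values are. The A-375 total knockout had 1 called gene (ELF2) with the q-value, centring, both count minimums and an adjusted p under 0.1, but 0 at an adjusted p under 0.01 and 0 with Holm adjustment. UM-UC-3 had 1 (ELF1) with centring and 1 at an adjusted p under 0.01, and 0 with Holm adjustment; the other settings kept ELF1 and ELK4. The long-form knockout had 0 in all 7 alternatives. Between cell lines, 1 gene differed (ELF1) with a mean of at least 100, and 2 (ELF1 and ELK3) at an adjusted p under 0.1. Centring turned ETV6 to 0.0060 in the A-375 total and -0.013 in the long-form knockout. The median implied control level per kilobase moved from 256 to 735 (A-375 total), 674 to 2006 (long-form) and 728 to 1328 normalised counts (UM-UC-3) with the median coding transcript as length, and by less than the genes' median standard error with other numbers of controls. No paired analysis was possible because the tables hold fitted comparisons with no value per library; for the same reason no library could be left out.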
